A study of Mus musculus with 10 samples.

Results

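The zona pellucida and oocyte-secreted factor transcripts described here are 8 genes, chosen by name: Zp1, Zp2, Zp3, Astl, Gdf9, Bmp15, Fgf8 and Oosp1. All 8 were found among the 55487 genes of the count table, and all 8 were among the 18956 genes that passed the filter on low counts and were tested. Fgf8 passed that filter only through the young ovaries (above 0.575 CPM, counts scaled to library size, in 4 of 4 Control, 0 of 3 Aged and 1 of 3 treated ovaries). A lower level with age was thus built into its passing, and the main count of members called with age is also read without it. Other counts over the 8 members, in the text and the captions, include Fgf8 and carry this limit. The data are RNA-seq profiles of 10 whole ovaries of C57BL/6J mice in 3 groups. The Control group held 4 ovaries of 8-week-old mice and the Aged group 3 ovaries of 11-month-old mice, the age that the labels give. The study's methods give a slightly younger age for the aged mice. The Aged+CF group held 3 ovaries of aged mice that received CEFFE, a cell-free extract of human fat, at 200 µL of 3 µg/µL protein into the tail vein every 2 days for 2 weeks. By the study's methods the Control and Aged mice were given saline in its place. All mice, controls included, were primed with 10 IU of PMSG, a gonadotropin that drives follicle growth, 48 h before the ovaries were taken, so each group describes a stimulated ovary. Nothing in the labels says whether 2 ovaries could come from 1 mouse, and the p-values measure the spread between these ovaries.

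The zona pellucida is the glycoprotein coat of the egg. In the mouse it is built from ZP1, ZP2 and ZP3, which the growing oocyte makes and secretes, and it mediates sperm binding and the block to polyspermy. The oocyte also secretes growth factors that act on the surrounding granulosa and cumulus cells: GDF9 and BMP15, both of the TGF-beta family, and FGF8, a fibroblast growth factor. These factors are known for supporting follicle growth, cumulus expansion, and the glycolysis and cholesterol synthesis of cumulus cells. Astl encodes ovastacin, the cortical granule protease that cleaves ZP2 after fertilization, and Oosp1 encodes oocyte secreted protein 1.

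The members lie apart in the genome. On GRCm38 with GENCODE M21, Zp1 spans chr19:10914287-10920632, Oosp1 chr19:11667460-11691150 and Fgf8 chr19:45736798-45742915, all 3 on the minus strand. Zp2 spans chr7:120126772-120145291 (minus), Zp3 chr5:135980099-135988624 (plus), Astl chr2:127338639-127357651 (plus), Gdf9 chr11:53431023-53437904 (plus) and Bmp15 chrX:6314107-6320721 (minus). All are protein-coding, with between 2 merged exons (Bmp15) and 18 (Zp2), and no other gene of that annotation overlaps any of them. The annotation and strand setting behind the counts were not given, so whether reads were shared with another gene was not tested.

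Promoters are shown as a description of the members, and shared control of these genes was not tested. The RefSeq table held windows for 4 members, and the 250 bases before a RefSeq transcription start (GRCm38.p6) are given 5′ to 3′ on the gene's strand. Capitals mark matches, on either strand, to 4 short motifs: CANNTG (the E-box, the kind of site bound by basic helix-loop-helix factors such as FIGLA and SOHLH1), TAATTA and TAATTG (homeobox, the kind of site known for NOBOX) and TGATTG (LIM homeobox, known for LHX8). The motifs do not overlap each other in these windows.
Zp3, chr5:135979855-135980104, plus strand: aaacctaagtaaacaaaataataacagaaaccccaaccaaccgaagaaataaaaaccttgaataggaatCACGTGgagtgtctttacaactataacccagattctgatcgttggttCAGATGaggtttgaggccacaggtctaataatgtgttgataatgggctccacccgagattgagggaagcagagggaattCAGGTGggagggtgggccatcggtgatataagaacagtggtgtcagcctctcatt
Astl (the downstream of 2 starts), chr2:127341386-127341635, plus strand: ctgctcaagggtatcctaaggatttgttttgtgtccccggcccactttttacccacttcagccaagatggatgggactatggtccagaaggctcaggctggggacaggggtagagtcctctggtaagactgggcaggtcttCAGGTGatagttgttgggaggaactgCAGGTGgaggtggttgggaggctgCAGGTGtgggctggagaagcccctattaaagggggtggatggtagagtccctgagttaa
Oosp1, chr19:11691052-11691301, minus strand: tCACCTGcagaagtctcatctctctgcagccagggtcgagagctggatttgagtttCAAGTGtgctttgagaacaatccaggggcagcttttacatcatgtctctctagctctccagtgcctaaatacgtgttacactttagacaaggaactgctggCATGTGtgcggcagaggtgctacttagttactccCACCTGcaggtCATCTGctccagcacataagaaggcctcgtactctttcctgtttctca
Bmp15, chrX:6320725-6320974, minus strand: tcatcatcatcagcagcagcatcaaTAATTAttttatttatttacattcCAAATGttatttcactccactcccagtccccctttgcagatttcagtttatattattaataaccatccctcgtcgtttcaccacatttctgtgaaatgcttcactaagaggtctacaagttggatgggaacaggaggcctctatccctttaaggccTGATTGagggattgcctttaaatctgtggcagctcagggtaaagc
E-box letters stood 3 times in the Zp3 window, counted back from the start at -181 to -176, -134 to -129 and -55 to -50. They stood 3 times before the downstream Astl start, not at all before its upstream start, 5 times before Oosp1 and once before Bmp15. The RefSeq start of Oosp1, at 11691051, lies inside the GENCODE gene, which starts at 11691150. The Oosp1 matches at -93 to -88, -59 to -54 and -48 to -43 are thus within that gene, as is the downstream Astl window within Astl. E-box letters are common: 66.2% of the 32817 RefSeq promoter windows of the same length held CANNTG. Bmp15 was the only one of the 4 with the rarer motifs, TAATTA at -225 to -220 (held by 4.85% of windows) and TGATTG at -45 to -40 (12.7%), and TAATTG (7.17%) stood in none. A match is a description of the letters and not a binding site.

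The ovaries were sequenced to between 15761789 and 21318254 counts. Levels below are CPM, with library sizes scaled by the trimmed mean of M-values. Aged replicate 34 stood apart: its 8 members summed to 7.55 CPM (137 counts), against 78.4 and 73.2 in Aged replicates 31 and 33, 278 to 384 in Control and 105 to 166 in Aged+CF. The same ovary held 347 CPM of the 6 immune markers (62.9 to 117 in the other 9) and 307 CPM of the 6 tested oviduct markers. Oviduct markers were at 367 CPM in Control replicate 33 and at 6.00 to 35.3 CPM elsewhere. The members of Control replicate 33 summed to 288 CPM, against 278, 384 and 366 CPM in Control replicates 31, 32 and 34. No oviduct or immune marker was at 0 in every ovary of a group, and the part of either tissue in the results was not tested. Of oocyte markers other than the members, 21 of 21 reference genes were tested, with summed levels of 189 to 654 CPM in the other 9 ovaries and 57.9 CPM in Aged replicate 34. Most of that 57.9 CPM came from Cpeb1 (21.6 CPM) and Tle6 (21.7 CPM), and Mos and Oog1 had 0 counts there. Results that rest on Aged replicate 34 are given with and without it.

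In the young ovary the 8 genes spanned a wide range. Compared per length, in FPKM (fragments per kilobase of gene, scaled to library size), the Control means were 42.1 ± 8.42 for Zp3 and 38.3 ± 5.05 for Gdf9 (SD, n = 4 here and for the other Control values). Zp2 followed at 18.4 ± 2.82 FPKM, Zp1 at 13.4 ± 2.05, Bmp15 at 11.4 ± 1.50, Oosp1 at 7.41 ± 1.59 and Astl at 4.08 ± 0.931. Fgf8 was lowest, at 0.264 ± 0.0388 FPKM. This order held in 4 of 4 Control ovaries at every step. Zp3 and Gdf9 were nearly level, with a mean FPKM ratio of 1.09 ± 0.108, and Zp1 and Bmp15 stood at a ratio of 1.18 ± 0.0963. The FPKM rest on a length for each gene that exceeds the merged exons of GENCODE M21 for 7 members (5292 against 2560 bases for Astl). Per kilobase of those merged exons Oosp1 (11.7 CPM) and Bmp15 (11.0 CPM) changed places, and the other ranks were the same.

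Within the zona, Zp3 was more abundant per length than Zp2, and Zp2 more than Zp1. The FPKM ratio of Zp3 to Zp2 was 2.27 ± 0.164 in Control, and in the Aged ovaries it was 1.96, 2.45 and 3.05. The ratio of Zp2 to Zp1 was 1.37 ± 0.0813 in Control and 1.33, 1.37 and 0.732 in Aged. The last value of each set is Aged replicate 34, which has 13 counts of Zp2 and 11 of Zp1. In Aged+CF replicates 30, 32 and 34 Zp2 to Zp1 was 1.29, 1.56 and 1.34, on both sides of the Control range of 1.3 to 1.46. Zp3 to Zp2 was 2.41, 1.85 and 1.99 there, so that 2 treated ovaries and Aged replicate 31 lay below the Control range of 2.12 to 2.5. Gdf9 to Bmp15, the ratio of the 2 TGF-beta ligands, was 3.38 ± 0.389 in Control and 2.81 ± 0.168 in Aged+CF. Its Aged values were 3.17, 3.46 and 8.62. The last again belongs to Aged replicate 34, with 66 counts of Gdf9 and 9 of Bmp15.

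The first comparison asks what ageing changed. Every member had a lower mean in the Aged group, and for each of the 8 every Aged ovary lay below every Control ovary. For Fgf8 a lower level was built into its passing the filter. The means fell to between 14.0% (Zp3) and 23.2% (Oosp1) of the Control level. A whole ovary cannot tell fewer oocytes from less RNA per oocyte.

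Among the zona genes, Zp1, which cross-links the filaments of the coat, was at 26.9, 35.7, 26.0 and 34.4 CPM in Control replicates 31, 32, 33 and 34. In Aged replicates 31, 33 and 34 it was at 8.05, 5.43 and 0.607 CPM. Its highest Aged ovary was thus below its lowest Control ovary by a wide margin, and relative to the mean the Aged ovaries spread more widely (coefficient of variation 80.4%, against 16.3% in Control). Zp2, the zona protein that ovastacin cleaves, was at 56.6, 75.1, 61.3 and 79.4 CPM in Control and at 17.2, 12.0 and 0.717 CPM in Aged. Zp3, which forms the filaments with ZP2, was at 53.7, 80.6, 55.6 and 76.9 CPM in Control and at 14.5, 12.6 and 0.937 CPM in Aged. All 3 zona genes kept the same order of ovaries within Aged, with replicate 31 highest and replicate 34 lowest, at 11 to 17 counts. Astl, the protease gene, was at 16.1, 27.0, 17.7 and 23.0 CPM in Control and at 4.65, 3.95 and 0.386 CPM in Aged, in the same order.

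The secreted factors fell alongside. Gdf9, the most counted member, was at 85.1, 115, 87.0 and 98.9 CPM in Control and at 22.6, 25.8 and 3.64 CPM in Aged. Bmp15 was at 30.1, 35.0, 30.2 and 39.8 CPM in Control and at 8.35, 8.75 and 0.496 CPM in Aged. For both ligands Aged replicates 31 and 33 lay close together and replicate 34 far below them. Oosp1 was at 9.16, 14.6, 9.48 and 12.5 CPM in Control and at 2.86, 4.30 and 0.772 CPM in Aged, the smallest difference of the 8. Fgf8 was rare throughout, with 14, 19, 21 and 21 counts in Control and 3, 5 and 0 in Aged. A count of 0 in Aged replicate 34 allows up to 0.165 CPM (3 counts, counting error only), so its absence there was not detectable at this depth.

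**Figure D1:**
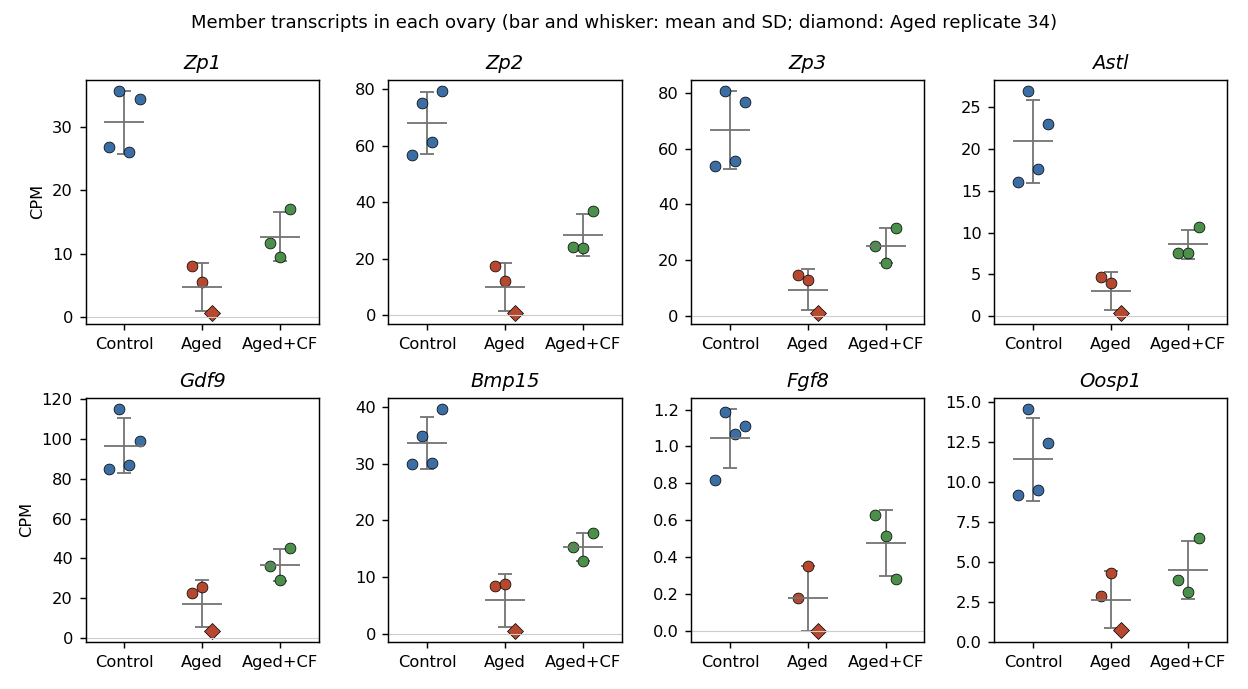
Level of each member (CPM, linear axis, 1 panel per gene) in the 4 Control, 3 Aged and 3 Aged+CF ovaries, with the group mean and SD. Every Aged ovary lies below every Control ovary in all 8 panels, the diamond (Aged replicate 34) lies lowest in each, and Aged+CF lies between the other groups without touching Aged in all panels but Fgf8 and Oosp1.

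In the edgeR quasi-likelihood fit across all genes tested, a gene was called at a fold change of at least 1.5 with a Benjamini-Hochberg adjusted p under 0.05. All 8 members were called lower in Aged than in Control, or 7 of 7 without Fgf8, where 6.06% of all genes tested were called lower. Groups that do not overlap in this direction were seen for 15.6% of all genes. The log2 fold change was -2.72 (SE 0.607, adjusted p = 0.0182) for Zp1, -2.78 (SE 0.696, adjusted p = 0.0269) for Zp2 and -2.84 (SE 0.652, adjusted p = 0.0199) for Zp3. It was -2.81 (SE 0.587, adjusted p = 0.0147) for Astl, a 7.03-fold lower level. For the ligands it was -2.48 (SE 0.516, adjusted p = 0.0145) for Gdf9, -2.53 (SE 0.641, adjusted p = 0.0277) for Bmp15 and -2.59 (SE 0.654, adjusted p = 0.0276) for Fgf8. Oosp1 had the smallest estimate, -2.12 (SE 0.492, adjusted p = 0.0206), and all 8 intervals overlapped. The two-sided exact permutation p was 0.0286 for each member, the smallest that 4 ovaries against 3 allow.

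Without Aged replicate 34 the estimates were smaller and tighter. All 8 members, Fgf8 with its filter limit included, were still called lower (7.54% of 19342 genes tested). Their log2 fold changes ran from -2.26 (Zp3, SE 0.251, adjusted p = 0.00171) to -1.64 (Oosp1, SE 0.345, adjusted p = 0.0113). Other ovaries mattered to the calls. With Control replicate 32 or Control replicate 34 left out 3 members were called (Zp1, Gdf9 and Astl each time), where 3.38% and 3.48% of all genes were called lower. With Aged replicate 31 left out 5 were, against 4.48% of all genes. Calls over all genes were thus fewer in these fits as well. The fold changes without those ovaries stayed between -2.86 and -1.98 for every member that lost its call, with edgeR adjusted p between 0.0506 and 0.0866. Zp2 alone lost its call without Aged replicate 33 (adjusted p = 0.0612), and Fgf8 alone without Control replicate 33, Aged+CF replicate 30 or Aged+CF replicate 32 (adjusted p from 0.0511 to 0.0551).

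The second comparison asks what CEFFE changed in the aged ovary. The mean of every member was higher in Aged+CF than in Aged, by 1.72-fold (Oosp1) to 2.89-fold (Astl) in the fit. For 6 of 8 members every Aged+CF ovary lay above every Aged ovary, against 10.2% of all genes in this direction, and Oosp1 and Fgf8 overlapped. None of the differences passed the adjusted threshold.

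Zp1 was at 11.6, 9.42 and 17.0 CPM in Aged+CF replicates 30, 32 and 34. Zp2 was at 24.3, 23.8 and 36.9 CPM and Zp3 at 25.1, 18.8 and 31.5 CPM. Replicate 34 of Aged+CF was the highest for the zona genes, and the lowest of the treated ovaries still exceeded the highest Aged ovary of each gene. Astl was at 7.57, 7.58 and 10.6 CPM, against 4.65 CPM in the highest Aged ovary. Gdf9 was at 36.2, 29.1 and 45.1 CPM, and its nearest gap was small, 29.1 against 25.8 CPM. Bmp15 was at 15.3, 12.9 and 17.7 CPM, above 8.75 CPM. Oosp1, at 3.84, 3.10 and 6.52 CPM, overlapped with Aged replicate 33 at 4.30 CPM. Fgf8, with 11, 9 and 6 counts, overlapped too, since its 0.281 CPM in replicate 34 lay below the 0.353 CPM of Aged replicate 33.

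By edgeR 0 of 8 members were called higher at the adjusted p, and 0% of all genes were called higher in this comparison. At an unadjusted p under 0.05 and the same fold change, 2 members were higher, against 3.91% of all genes. They were Astl (log2 fold change 1.53, SE 0.592, edgeR adjusted p = 0.254) and Zp1 (1.44, SE 0.610, edgeR adjusted p = 0.285). The other members had log2 fold changes of 1.51 (Zp2), 1.43 (Zp3), 1.09 (Gdf9), 1.39 (Bmp15), 1.45 (Fgf8) and 0.78 (Oosp1). Their 95% intervals reached from just below 0, -0.01 for Zp3 and -0.35 for Oosp1, up to 3.06 for Zp2. The exact permutation p was 0.1 for the 6 members without overlap, the smallest that 3 against 3 allow. DESeq2 also called 0 members at the adjusted p, where it called 1.11% of all genes higher, and 5 at the unadjusted p, against 3.95%.

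This comparison rests in part on Aged replicate 34. Without it Bmp15 was called higher by edgeR (log2 fold change 0.82, SE 0.176, adjusted p = 0.0435), where 0.713% of all genes were called higher. At the unadjusted p 6 members were then higher, against 5.67% of all genes. The fold changes themselves shrank: from 1.44 to 0.89 for Zp1, from 1.51 to 0.94 for Zp2, from 1.43 to 0.87 for Zp3 and from 1.09 to 0.59 for Gdf9. For Astl the estimate went from 1.53 to 0.98. For Oosp1 it went from 0.78 to 0.32, with an interval from -0.47 to 1.11. The means of Aged+CF were from 1.25 (Oosp1) to 1.998 (Astl) times the mean of Aged replicates 31 and 33. With an ovary left out the count of members at the unadjusted p ran from 0, without Aged+CF replicate 34, to 6. It was 1 without each Control ovary or Aged+CF replicate 30, 4 without Aged replicate 31 and 5 without Aged replicate 33. The share of all genes higher at the unadjusted p in these fits was 2.76% to 5.67%.

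**Figure D2:**
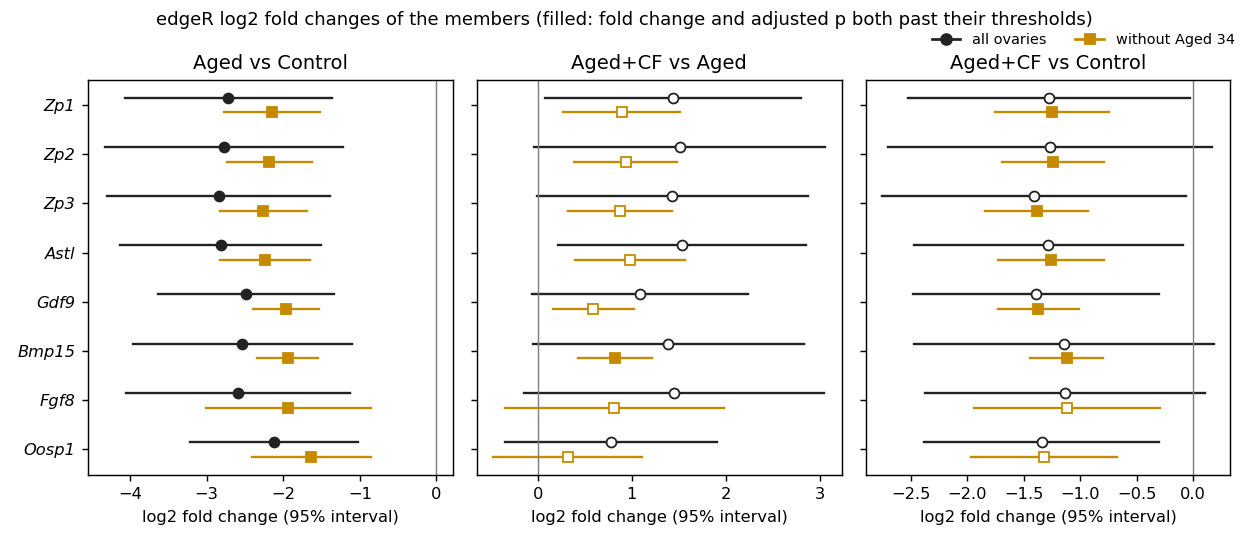
Log2 fold change with its 95% interval (x axis) for each member (y axis) in the 3 comparisons, from all 10 ovaries (circles) and without Aged replicate 34 (squares). Filled symbols are called at the adjusted p: all 8 members with age in both fits, Bmp15 alone with CEFFE and only without that ovary, and 6 members in Aged+CF vs Control without it.

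Aged+CF ovaries lay below the young ones. The Aged+CF means were 37.7% (Zp3) to 45.6% (Fgf8) of the Control means, and for all 8 members no treated ovary reached the lowest Control ovary, as for 12.2% of all genes in this direction. The log2 fold changes against Control lay between -1.41 (Zp3, SE 0.603) and -1.14 (Bmp15, SE 0.594, and Fgf8, SE 0.556). At the adjusted p edgeR called 0 members, where 0.0422% of all genes were called lower. At the unadjusted p 5 members were lower (Zp1, Zp3, Astl, Gdf9 and Oosp1), against 4.36% of all genes.
Although Aged ovaries do not enter this contrast, they set the shared estimate of the spread, and without Aged replicate 34 edgeR called 6 members lower (all but Fgf8 and Oosp1), against 0.869% of all genes, with Gdf9 at -1.37 (SE 0.16, edgeR adjusted p = 0.00777). Fitted on the 2 groups alone, 7 were called, against 1.37% of all genes. The count at the unadjusted p was 8 without Aged replicate 34 and 0 without Aged+CF replicate 30 or 32. It was 2 without Control replicate 32, Control replicate 34 or Aged+CF replicate 34, and 3 without Control replicate 31, Control replicate 33 or Aged replicate 33, while the share of all genes ran from 2.26% to 5.97%. Each pair of the 3 comparisons has 1 group in common, so their values are not independent.

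The members were then set against a reference list of oocyte genes. For each ovary the mean log2 CPM of 21 other oocyte genes, such as the maternal-effect genes Nlrp5, Padi6 and Ooep and the germ cell gene Dazl, was subtracted from the log2 CPM of each member. In Control the zona genes stood at 1.08 ± 0.03 (Zp1), 2.22 ± 0.06 (Zp2) and 2.18 ± 0.08 (Zp3) above this reference, and in Aged at 0.25 ± 0.52, 1.06 ± 0.94 and 1.11 ± 0.65 (SD, n = 4 and 3). For Zp2 the Control ovaries gave 2.17, 2.18, 2.29 and 2.25, the Aged ovaries 1.93, 1.17 and 0.06, and the Aged+CF ovaries 1.90, 2.18 and 2.25. Zp2 was thus lower relative to the mean of the reference genes in each Aged ovary than in any Control ovary, by very different amounts. The reference genes' own log2 fold changes with age ran from -2.97 (Nlrp5) to -0.11 (Cpeb1). Nlrp5 and Padi6 (-2.96) had larger falls than Zp2 (-2.78), so a lower ratio describes a member against the reference mean and not against every reference gene.

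Gdf9 behaved more evenly. Its log2 ratio was 2.76, 2.80, 2.80 and 2.57 in the Control ovaries, 2.31, 2.27 and 2.24 in the Aged ovaries and 2.47, 2.47 and 2.54 in the treated ovaries. The 3 groups did not overlap at this setting (a prior count of 2 and the mean of the reference), and Aged replicate 34 lay with the other Aged ovaries. The separation depended on that setting: the exact permutation p of Aged vs Control was 0.114 with the median of the reference and 0.0857 with a prior count of 0.5, at differences of -0.49 and -0.31. From Control to Aged the ratio fell by 0.83 for Zp1, 1.17 for Zp2, 1.07 for Zp3, 0.85 for Astl, 0.81 for Bmp15 and 0.46 for Gdf9, each with an exact permutation p of 0.0286 (adjusted 0.0981 over 24 ratio tests). These 6 therefore did not pass after adjustment. For Oosp1 the ratio differed by 0.11, within the spread of the ovaries (exact permutation p = 0.686). Fgf8 had 0 counts in Aged replicate 34, so its ratio there is set by the prior count, and without that ovary it differed by -0.09 (exact permutation p = 0.667). Without Aged replicate 34 the falls were 0.63, 0.67, 0.72, 0.68, 0.41 and 0.44 for Zp1, Zp2, Zp3, Astl, Bmp15 and Gdf9, where the smallest p the design allows is 0.0667.

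From Aged to Aged+CF the ratio was higher by 0.70 for Zp1, 0.83 for Zp3, 0.83 for Bmp15, 0.75 for Astl and 0.22 for Gdf9 without overlap (exact permutation p = 0.1, the smallest possible, adjusted 0.185). Zp2 differed by 1.05 with overlap (exact permutation p = 0.2). Without Aged replicate 34 the differences were 0.50 for Zp1, 0.56 for Zp2, 0.47 for Zp3, 0.43 for Bmp15, 0.58 for Astl and 0.20 for Gdf9. With a prior count of 0.5 and all ovaries Gdf9 differed by 0.09 (exact permutation p = 0.4) and Zp1 by 0.62 (exact permutation p = 0.2), both with overlap. Between Aged+CF and Control Bmp15 differed by 0.02 and Zp2 by -0.11, within the spread of the ovaries. Reference genes did not all fall in Aged replicate 34: Cpeb1 (22.9 CPM in Control, 21.2 in Aged) and Tle6 (57.8 and 38.5 CPM) were at 21.6 and 21.7 CPM there, where 17 of the other 19 reference genes were at 1.65 CPM or less.

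**Figure D3:**
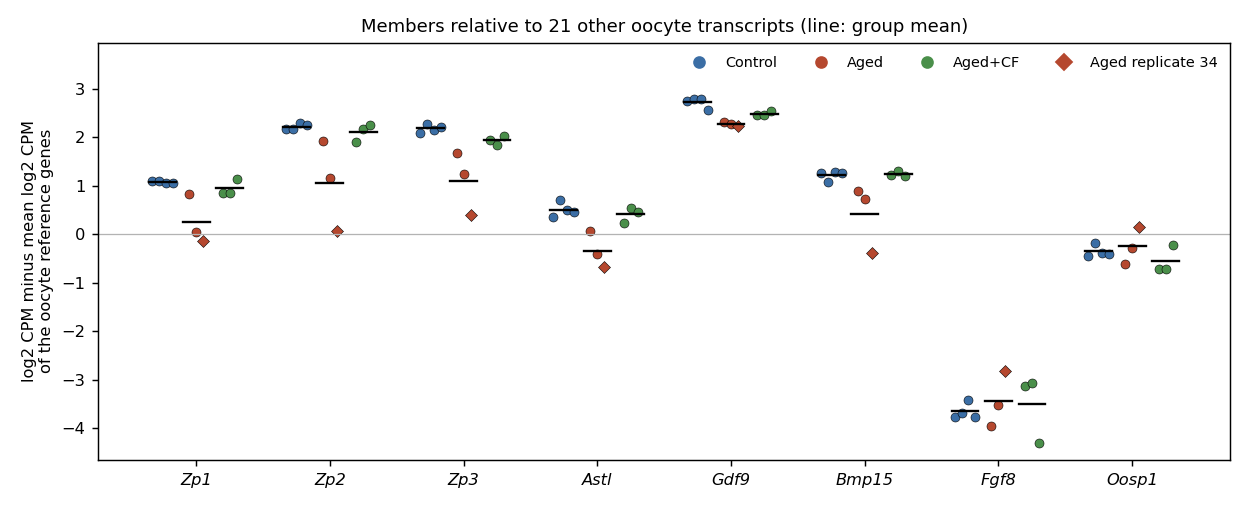
Log2 CPM of each member minus the mean log2 CPM of 21 other oocyte genes (y axis, 0 is equality) in each ovary, with the group mean as a line. Zp1, Zp2, Zp3, Astl, Bmp15 and Gdf9 lie lower in Aged than in Control without overlap, Gdf9 with the smallest spread at the prior count of 2 shown, while Fgf8 and Oosp1 overlap between the groups.

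Across the 10 ovaries the members' centred log2 CPM followed a shared profile, some members more closely than others. The root mean square difference of each member from the mean of the other 7 was 0.171 for Astl, 0.183 for Gdf9, 0.210 for Zp1, 0.284 for Bmp15, 0.306 for Zp3, 0.459 for Zp2, 0.543 for Oosp1 and 0.690 for Fgf8. Without Aged replicate 34 these ran from 0.110 (Bmp15) to 0.460 (Fgf8), with Zp2 at 0.195 and Zp3 at 0.148. The 10 genes nearest to the members' mean profile, of 16737 other genes with a mean of at least 1 CPM, were Nlrp4f and Gtsf1 (both 0.14), Slc30a3 (0.142), Khdc1a (0.162), Kpna7 (0.173), Nobox (0.175), Sall4 (0.176), Noto (0.186), Oas1e (0.201) and Speer5-ps1 (0.206). The 50th nearest gene lay at 0.318, a smaller distance than those of Zp2, Oosp1 and Fgf8 from the other members. The median distance of all candidates was 1.52, and 0.868 without Aged replicate 34. Nobox, an oocyte homeobox factor, had means of 13.0 CPM in Control, 2.31 CPM in Aged and 5.32 CPM after CEFFE, and Nlrp4f of 17.2, 3.15 and 7.70 CPM in the same order. Among the nearest 50 were 8 of the 25 candidates from the oocyte reference and transcription factor lists. Without Aged replicate 34 the nearest gene was Ooep (0.0714), 4 of the nearest 10 were shared with the full set, and all 10 genes named above were within the nearest 50. The points share their libraries, so these distances are a description.

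Other genes of the pathway were read from lists of known members. Of the oocyte transcription factors, 4 of 5 tested were called lower with age, against 6.06% of all genes. Their median log2 fold change was -2.51, against -0.001 over all genes. With CEFFE 0 were called (median 1.15, against -0.02 over all genes, and 0.68 without Aged replicate 34). Sohlh1, a helix-loop-helix factor of early oocytes, had a log2 fold change of -3.48 (edgeR adjusted p = 0.00843). Lhx8, a LIM homeobox factor, had -2.61 (adjusted p = 0.00876) and Nobox -2.51 (adjusted p = 0.0185). Taf4b, a TFIID subunit enriched in gonads, had -1.16 (adjusted p = 0.024). Figla, the factor best known for the zona genes, had -2.39 but missed the threshold by edgeR (adjusted p = 0.0578), at 1.198 CPM on average in Control. In every Aged ovary Sohlh1 (0.477, 0.0705 and 0.165 CPM) and Figla (at most 0.537 CPM) were below the filter level of 0.575 CPM. Both passed the filter without any Aged ovary, so a lower level with age was built into their passing. Sohlh1 is among the 4 called. Sohlh2 and Tbpl2 did not pass the filter.

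Of the 21 oocyte reference genes, 10 were called lower with age, against 6.06% of all genes. All 21 had negative fold changes (median -2.15), against 50.1% of all genes. Ooep fell from 26.6 ± 6.02 to 5.61 ± 1.62 CPM (edgeR adjusted p = 0.00359), Dazl from 6.07 ± 1.01 to 1.39 ± 0.650 CPM (adjusted p = 0.00661) and Gpr3, the receptor that holds the oocyte in meiotic arrest, from 1.87 ± 0.557 to 0.356 ± 0.120 CPM (adjusted p = 0.00677). No Aged ovary reached the filter level of 0.575 CPM for Gpr3 (at most 0.494 CPM), so its call has the same limit as that of Sohlh1. In Aged+CF vs Aged none of the 21 was called, and all 21 had positive fold changes (median 0.82). Without Aged replicate 34 the counts were 16 and 1, against 7.54% of all genes called lower with age and 0.713% called higher with CEFFE. The CEFFE median was then 0.26, and Tle6 (-0.25), Khdc3 (-0.17) and Zar1l (-0.15) had negative values.

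The egg surface list was mixed. Izumo1r, which encodes JUNO, the egg receptor for the sperm protein IZUMO1, was called lower with age (log2 fold change -2.004, SE 0.311, edgeR adjusted p = 0.00608). It was at 4.67, 6.73, 5.43 and 5.20 CPM in Control and at 1.31, 1.76 and 1.05 CPM in Aged, and Aged+CF overlapped with Aged at 1.09, 1.32 and 2.25 CPM. Izumo1r thus fell with age and was not called with CEFFE (0.19, edgeR adjusted p = 0.803). The tetraspanin Cd81 was called higher with age (0.70, adjusted p = 0.00506), against 5% of all genes called higher, and Cd9, its relative needed for sperm fusion, was not called (0.56, adjusted p = 0.177). Cd81 was at 401 to 407 CPM in Aged+CF, below the 563 to 681 CPM of Aged (log2 fold change -0.60, edgeR adjusted p = 0.15), and was called lower with CEFFE without Aged replicate 34 (-0.67, adjusted p = 0.0235). Both tetraspanins are also made by many somatic cells. Oosp2 (-1.86, adjusted p = 0.138) and Oosp3 (-1.55, adjusted p = 0.177), relatives of Oosp1, missed the threshold by edgeR, as did Fetub (-0.65, adjusted p = 0.0875).

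Receptors and signal carriers of the granulosa side had median fold changes near 0. Of 17 genes for GDF9 and BMP15 receptors, SMADs, antagonists and processing, 1 was called lower with age, a share near the 6.06% of all genes (median log2 fold change -0.16, or -0.27 without Aged replicate 34), and 0 were called with CEFFE (median 0.15). The 1 was Bmpr1b, a type I receptor for BMP15. It was at 122, 144, 135 and 125 CPM in Control, 70.3, 46.4 and 34.4 CPM in Aged and 107, 39.1 and 93.8 CPM in Aged+CF. Aged lay below Control without overlap (log2 fold change -1.38, edgeR adjusted p = 0.0235), while Aged+CF spanned both. This call was lost without Control replicate 32 or Control replicate 34, where the list had 0 calls, and the list had up to 3 without Aged replicate 31 or Aged+CF replicate 32. Smad1, of the branch that BMP15 uses, was called higher with age (1.01, edgeR adjusted p = 0.00258) and lower with CEFFE (-0.815, adjusted p = 0.0272) without Aged replicate 34, and in neither comparison with it (0.69, adjusted p = 0.0753, and -0.52, adjusted p = 0.344). Smad4, the common SMAD, had an adjusted p of 0.0315 by edgeR with a log2 fold change of only -0.29, and Smad3, of the branch that GDF9 uses, had -0.38 (adjusted p = 0.0341). Bmpr2, the shared type II receptor, had -0.54 (adjusted p = 0.0684). Among 13 FGF receptors and feedback genes 0 were called in either comparison (medians -0.01 and 0.01). At the unadjusted edgeR p 0 of the 13 passed with age and 1 with CEFFE. It was Etv4, a transcriptional target of FGF signalling, at 0.94 (edgeR adjusted p = 0.255).

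The cumulus lists, whose genes are known to respond to oocyte factors, did not share a direction. Of the 3 cumulus expansion genes tested 0 were called in either comparison by edgeR, and 1, Ptgs2, passed at an unadjusted p with age. Ptx3, a matrix protein, was at 4.61, 3.55, 4.51 and 3.92 CPM in Control and 3.76, 3.53 and 4.19 CPM in Aged. Ptgs2, the prostaglandin synthase, was at 0.768 ± 0.610 and 0.174 ± 0.179 CPM, and Has2 did not pass the filter. No Aged ovary reached the filter level of 0.575 CPM for Ptgs2 (at most 0.358 CPM), so a lower level with age was built into its passing. Of 7 cumulus metabolism genes 1 was called with age, the glycolytic enzyme gene Aldoa, against 5% of all genes called higher. Aldoa was higher with age (0.74, edgeR adjusted p = 0.017) and was not called without Aged replicate 33. Of 5 other cumulus genes 0 were called with age. Amh was at 355, 722, 415 and 506 CPM in Control and 90.2, 131 and 3.25 CPM in Aged, and the list had 2 calls without Aged replicate 34.

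Cholesterol synthesis went the other way from the oocyte genes. Of 9 genes 8 were called higher with age (median log2 fold change 1.91), against 5% of all genes. With CEFFE 0 were called, and all 9 had negative fold changes (median -1.21). Msmo1, a demethylating oxidase of the pathway, was at 73.6 ± 17.6 CPM in Control, 446 ± 283 CPM in Aged and 166 ± 44.0 CPM in Aged+CF (2.60 with age, edgeR adjusted p = 0.00547). Cyp51 (2.49, adjusted p = 0.0126) and Ebp (1.51, adjusted p = 0.0119), 2 other enzymes of the pathway, rose as well. These enzymes are also used by steroid-making cells, and 5 of 7 theca and luteal markers were called higher with age (median 1.47), against 5% of all genes. Among them were Lhcgr (1.80, edgeR adjusted p = 0.0127) and Cyp11a1 (1.47, edgeR adjusted p = 0.0158). Insl3 went the other way without being called (-1.385, edgeR adjusted p = 0.053), and Cyp17a1 was not called (0.43, edgeR adjusted p = 0.81, or -0.99 without Aged replicate 34). Summed theca and luteal markers were 6324 to 11210 CPM in Control, 15250 to 32900 CPM in Aged and 13040 to 18050 CPM in Aged+CF, and their part in the cholesterol genes was not tested. The cholesterol list had 4 or 5 calls with age without any 1 of the Control ovaries, Aged replicate 31 or Aged replicate 33, and 9 without Aged replicate 34. With CEFFE and without Aged replicate 34, 6 of the 9 were called lower, against 2.16% of all genes called lower then and 0.00528% in the full fit. The theca and luteal list had 1 call without Control replicate 32 and 3 without Control replicate 34 or Aged replicate 33.

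Markers of granulosa cells, which surround the oocyte, were lower in Aged for 9 of 9 genes (median log2 fold change -0.74), of which 1 was called, Amhr2 (-0.83, edgeR adjusted p = 0.0124). Of all genes tested, 50.1% were lower in Aged and 6.06% were called lower. The granulosa list had 2 calls without Aged replicate 31 or Aged+CF replicate 32. With CEFFE 0 were called, with 6 genes higher and 3 lower (median 0.14, or -0.06 without Aged replicate 34). Fshr, the receptor for follicle-stimulating hormone, had 0.85 (edgeR adjusted p = 0.234), and Foxl2 had -0.29 (edgeR adjusted p = 0.299). The granulosa markers' log2 fold changes with age lay between -1.77 and -0.26 and those of the members between -2.84 and -2.12. This difference was not tested. Amh, kept with the other cumulus genes and not among these markers, had -2.74 (edgeR adjusted p = 0.0544), within the members' range. Without Aged replicate 34 Amh had -2.13 (edgeR adjusted p = 0.00253). Of 6 immune markers 4 were called higher with age (median 1.77), against 5% of all genes. Cd79a, among the 4 called, was at most 0.561 CPM in Control, below the filter level of 0.575 CPM. It passed the filter without any Control ovary, so a higher level with age was built into its passing. The count of immune markers called was 2 without Control replicate 31, Control replicate 32 or Control replicate 34, and 3 without Aged replicate 34 (median 1.19). Jchain was at 152 CPM in Aged replicate 34, against 15.5 and 1.62 CPM in Aged replicates 31 and 33. Of the 6 oviduct markers 0 were called by edgeR with age, and 1 without Aged replicate 34. None was past the unadjusted threshold with age.

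**Figure D4:**
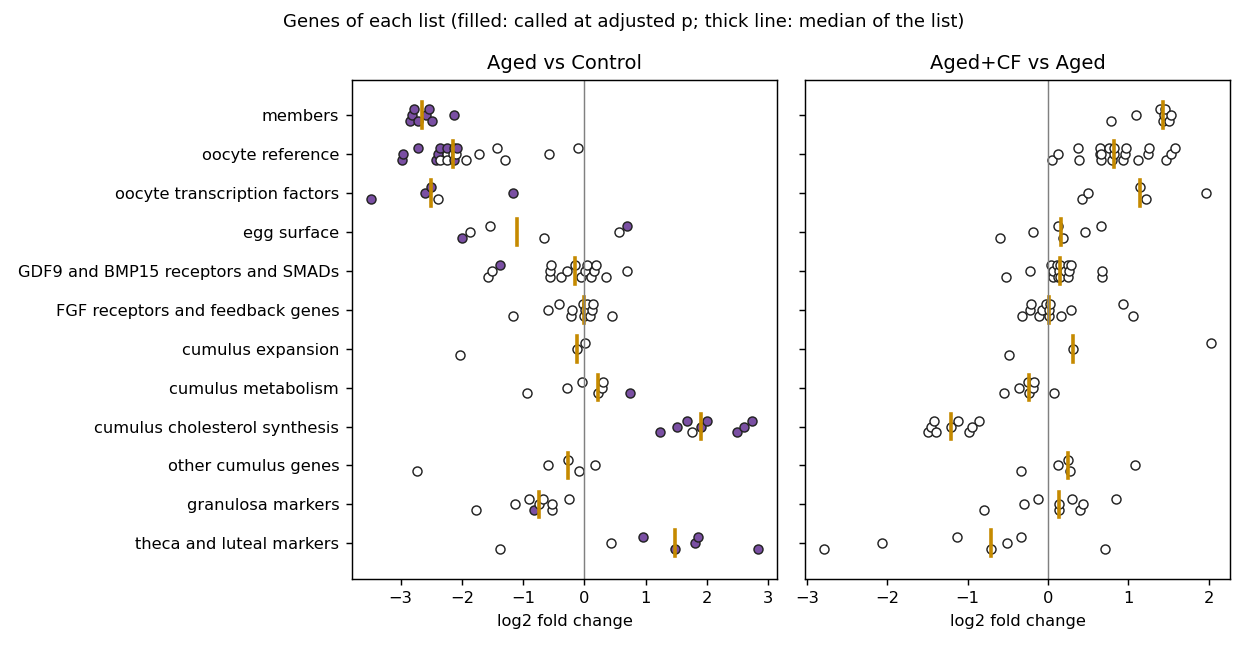
Log2 fold change (x axis) of the 8 members and of each gene of the oocyte, receptor, cumulus, granulosa and theca and luteal lists (y axis, 1 row per list), with the age comparison in the left panel and the CEFFE comparison in the right. With age the members and oocyte lists lie left of 0 and the cholesterol and theca and luteal lists mostly right of it, the receptor and FGF rows are centred near 0, and no gene is filled in the right panel.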

How the data were processed

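RNA-seq of 10 ovaries was analysed. The authors deposited 1 table with raw read counts and FPKM per gene, with every ovary in its own column, and the FPKM follow from the same counts and 1 length per gene (implied lengths differ between ovaries by at most 1.0009 times). The submitters' processing notes name TopHat, Cufflinks 2.1.1 and GRCm38.p4. The counting tool, annotation and strand setting were not given in the sources used here. Depth was 15761789 to 21318254 counts, and 18869 genes had no count.

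Counts were fitted in R 4.3 with edgeR 4.0 (filterByExpr, TMM, 1 mean per group, quasi-likelihood F test, all 10 ovaries). Called means past a 1.5-fold change with the Benjamini-Hochberg adjusted p, over all genes tested, under 0.05, and an unadjusted p under 0.05 was read beside it, since the study states both. Log2 CPM for ratios and distances used a prior count of 2. Ratios were tested by two-sided exact permutation. The fit was tested on simulated counts. Alternatives were no filter, DESeq2 1.42 size factors and Wald test, 2-group fits, a replicate block, each ovary left out and limma 3.58 on log2(FPKM + 0.1). A fit without the 2 ovaries high in oviduct markers was chosen after seeing the data. Where a symbol had 2 gene IDs (Aldoa), the ID with more counts was used.

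The members and gene lists were chosen with earlier results of these data known. Named genes are all 8 members, up to 3 genes per list and comparison with the smallest unadjusted p and a mean of at least 1 CPM, any gene of a list of up to 7, and the 10 nearest genes. Nlrp5, Padi6, Cpeb1, Tle6, Mos, Oog1, Khdc3, Zar1l, Figla, Bmpr2 and Ooep beyond this rule were named after their values were seen, as were the nearest gene without Aged replicate 34 and the libraries named as decisive.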

Additional observations from a re-analysis of the deposited data

How the results depend on the processing

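No fold change of a member changed direction under any of the 17 alternatives (16 for Fgf8 in Aged+CF vs Aged). With age the members' log2 fold changes ranged from -3.61 (Zp3) to -1.42 (Fgf8), and at the unadjusted p all 8, Fgf8 included, passed under every alternative. With 1 ovary left out, 8.43% to 11.3% of all genes were lower with age at the unadjusted p. The count of members called with age (8) was 5 when only the 2 groups compared were fitted, 0 with the replicate block, and 3 to 8 with 1 ovary left out. In Aged+CF vs Aged the adjusted count (0) was 0 to 1 with 1 ovary left out. The unadjusted count (2) was 6 with no filter, 5 by DESeq2, 7 by limma on FPKM, 0 in the 2-group fit, 0 with the replicate block, 0 to 6 with 1 ovary left out, and 6 without the 2 ovaries high in oviduct markers, an alternative chosen after seeing the data. In Aged+CF vs Control the adjusted count (0) was 7 in the 2-group fit, 0 to 6 with 1 ovary left out and 5 without those 2 ovaries. The unadjusted count (5) was 8 in the 2-group fit, 0 with the replicate block, 0 to 8 with 1 ovary left out and 8 without those 2 ovaries. The cause of these differences was not tested. The replicate numbers do not pair the ovaries: they name different mice, and the deviations of same-numbered ovaries correlated between -0.185 and 0.153. Over all genes the block left 80 calls with age of 2096, while 2980 passed at the unadjusted p.

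With 1 ovary left out, calls with age ranged from 7 to 16 for the oocyte reference list, 0 to 3 for receptors and SMADs, 0 to 1 for cumulus metabolism, 4 to 9 for cholesterol synthesis, 0 to 2 for other cumulus genes, 1 to 2 for granulosa markers, 1 to 6 for theca and luteal markers, 0 to 1 for oviduct markers and 2 to 6 for immune markers. With CEFFE they ranged from 0 to 1 for the oocyte reference, egg surface, receptor and theca and luteal lists and from 0 to 6 for cholesterol synthesis. Ratios to the oocyte reference were lower with age at an unadjusted exact p of 0.0286 for 6 members, and for 5 (not Gdf9) with the median of the reference or a prior count of 0.5. Leaving out an ovary leaves a ratio test that cannot go below 0.05, so it is given as values. Fgf8, with 0 to 21 counts an ovary, is limited by depth.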
